A study of Homo sapiens with 12 samples.

Results

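SK-UT-1 is an established human uterine leiomyosarcoma (uLMS) cell line. Its RNA was sequenced after 48 h with vehicle (labelled VEH, DMSO in the study's account), with 5 µM JQ1 or with 5 µM I-BET 762. Both compounds are inhibitors of the bromodomain and extraterminal (BET) proteins, which read acetylated lysines on chromatin. The labels give no genetic change in any group, so all cells share the parental SK-UT-1 background, and the study used 1 line here. Of 12 labelled libraries, 10 had values: VEH 13, 14 and 15, JQ1 17, 18, 19 and 20, and I-BET 762 21, 22 and 23, while VEH 16 and I-BET 762 24 were not analysed here. The study's methods state that outlier samples were excluded.

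The genes described are 8 of the 22784 gene symbols measured: MGAT1, MGAT2, MGAT3, MGAT4A, MGAT4B, MGAT5, FUT8 and MAN2A1. They encode the Golgi enzymes that branch N-glycans, bisect them or add the core fucose. The list was chosen by the measured rise of MGAT4A with both inhibitors against VEH, and the other 7 genes were added for their function. MGAT4A is therefore described by its values and given no test, and it is left out of counts of changed genes. All 8 genes passed the filter of at least 10 normalized counts in at least 3 libraries, but MGAT3 passed through the VEH libraries alone and MGAT4A through the treated libraries alone. The remaining 6 had at least 10 normalized counts in every library.

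N-glycans are sugar trees that the cell attaches to asparagines of secreted and membrane proteins in the endoplasmic reticulum and remodels in the Golgi. MGAT1 adds the N-acetylglucosamine (GlcNAc) that opens the route to hybrid and complex glycans, MAN2A1 then trims mannoses, and MGAT2 starts the antenna on the arm that trimming has freed. MGAT4A, MGAT4B and MGAT5 add further antennae, MGAT3 adds a bisecting GlcNAc that hinders more branching, and FUT8 attaches fucose to the innermost GlcNAc. Branched and core-fucosylated glycans are studied in tumour cells for their part in growth factor receptor signalling, galectin binding and adhesion.

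A normalized count is the number of reads on a gene divided by a scaling factor of the library. The VEH libraries held 35564590 to 38899942 reads on genes, the JQ1 libraries 35691649 to 39658988 and the I-BET 762 libraries 37733029 to 38405000. Where no read was counted, up to 3 reads remain possible, or 2.73 to 3.30 normalized counts after scaling, counting error alone considered. Log2 fold changes are differences of log2(normalized count + 1), given with a standard error (SE) and an adjusted p-value from limma with Benjamini-Hochberg adjustment over 14839 tested genes. Genes that changed by more than 1.5-fold with an adjusted p-value under 0.05 are called DEGs. The labels do not say whether libraries came from separate cultures, so p-values measure the spread between these libraries, which may be technical. Smooth muscle markers were measured as a check of the line, and their summed level was 20504 to 21139 normalized counts in VEH, 10664 to 11272 with JQ1 and 11823 to 12374 with I-BET 762. Of 7 markers tested, 6 fell as DEGs with each inhibitor, beside 22.8% of all tested genes with JQ1 and 17.9% with I-BET 762. ACTG2, MYOCD and ESR1 had at most 3 reads in every library. The summed level of 6 epithelial markers was also lower, at 1231 to 1290 in VEH, 517 to 612 with JQ1 and 507 to 547 with I-BET 762. The part of these shifts in the results that follow was not tested. Blood and endothelial markers summed to at most 8.72 normalized counts in any library.

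MAN2A1 and MGAT4B moved in opposite directions with both inhibitors, and the reference sequence around their start sites is shown for that reason. Each run is 300 bases of RefSeq sequence on GRCh38.p14, from 250 bases before the start to 50 after it, 5′ to 3′ on the gene's strand. Capitals mark the GC box letters GGGCGG on either strand, where neighbouring matches may share a base. The MAN2A1 window lies at chr5:109689677-109689976 on the plus strand and the MGAT4B window at chr5:179806817-179807116 on the minus strand.
MAN2A1: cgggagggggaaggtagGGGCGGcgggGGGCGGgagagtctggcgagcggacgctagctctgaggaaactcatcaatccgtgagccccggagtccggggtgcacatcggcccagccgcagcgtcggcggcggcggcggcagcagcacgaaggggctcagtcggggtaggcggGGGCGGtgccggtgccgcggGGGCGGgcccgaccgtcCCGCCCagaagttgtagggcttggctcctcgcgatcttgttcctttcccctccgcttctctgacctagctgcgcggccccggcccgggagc
MGAT4B: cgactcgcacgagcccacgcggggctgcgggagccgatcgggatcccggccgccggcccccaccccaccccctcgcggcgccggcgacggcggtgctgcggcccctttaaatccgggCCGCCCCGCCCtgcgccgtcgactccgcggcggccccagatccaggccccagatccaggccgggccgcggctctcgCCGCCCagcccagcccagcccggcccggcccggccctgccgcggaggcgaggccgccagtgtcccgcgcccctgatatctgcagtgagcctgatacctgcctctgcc
The MAN2A1 window held 5 GC boxes with a GC content of 73.3%, and the MGAT4B window held 3 with a GC content of 79%. A further MGAT4B window of the table, at chr5:179802826-179803125, held 0 GC boxes with a GC content of 56.3% and is not shown. GGGCGG occurred in 45% of the 35116 promoter windows of the same length. The CCAAT box (CCAAT, 34.6% of windows), the E box (CACGTG, 7.26%) and the TATA box (TATAAA, 11.5%), also searched on both strands, had no match in either window shown. Windows of this table were matched for 6 of the 8 genes, the exceptions being MGAT3 and MGAT4A.

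MGAT3, which entered the test through its VEH libraries alone, is given by its values and read counts, with no test against VEH. Of the 6 genes with at least 10 normalized counts in every library, MAN2A1 was a DEG upwards with JQ1 and 0 were DEGs downwards. Of all tested genes, 36.1% were DEGs with JQ1, 13.3% up and 22.8% down. With I-BET 762, 0 of the 6 were DEGs in either direction, beside 26.9% of all tested genes, 8.96% up and 17.9% down. By the adjusted p-value alone, 5 of 6 changed with JQ1 and 3 of 6 with I-BET 762, where 71.7% and 61.1% of all tested genes did. The libraries of inhibitor and VEH did not overlap for 5 of 6 genes with each inhibitor, against 68.4% of all genes with JQ1 and 71.0% with I-BET 762. With JQ1 4 of these lay higher and 1 lower than VEH, beside 34.1% and 34.3% of all genes, and with I-BET 762 3 lay higher and 2 lower, beside 34.8% and 36.2%. Both comparisons use the same VEH libraries.

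**Figure D1:**
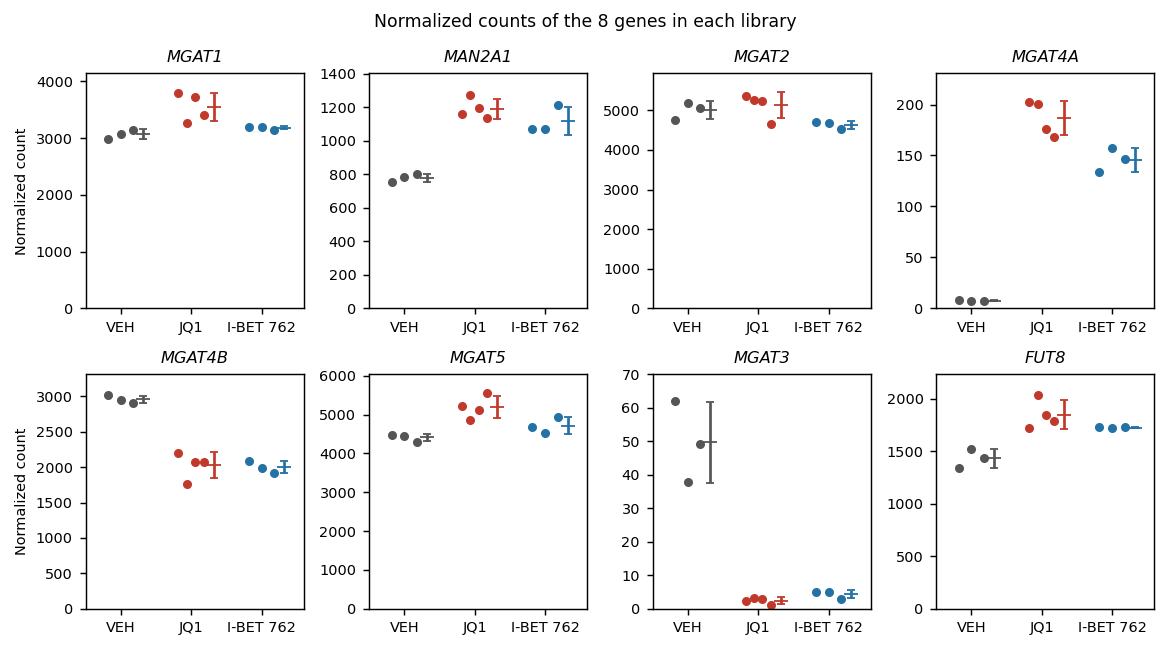
Normalized counts (vertical axis, linear from 0) of the 8 genes in the VEH, JQ1 and I-BET 762 libraries. Points are libraries, and the bar beside them is the mean ± SD (n = 3, 4 and 3). MGAT4A sits at 7.28 to 8.72 in VEH and at 134 to 202 in the treated libraries, and MGAT3 at 37.9 to 62.0 in VEH and at most 5.01 in the treated libraries.

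**Figure D2:**
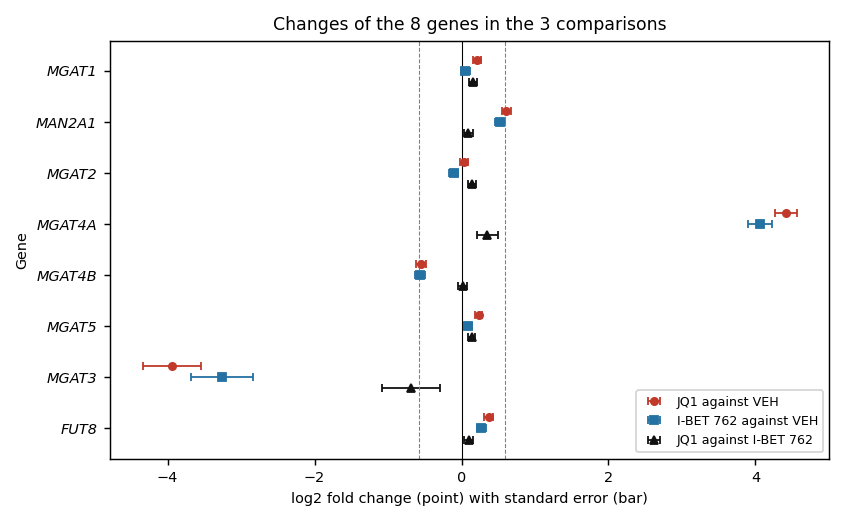
Log2 fold change (horizontal axis, point) with its standard error (bar) for each gene in the 3 comparisons. Dashed lines mark a 1.5-fold change. MGAT4A lies far to the right and MGAT3 far to the left in both comparisons with VEH, and the other 6 genes lie within 0.61 of 0.

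The enzymes that open the route changed little or modestly. MGAT1 (chromosome 5, 180784780 to 180815652, minus strand, hg38) was measured at 2976, 3074 and 3151 normalized counts in VEH, at 3785, 3269.5, 3722 and 3407 with JQ1 and at 3197, 3201 and 3149 with I-BET 762. All JQ1 libraries lay above all VEH libraries, while the I-BET 762 libraries overlapped them. MGAT1 rose with JQ1 by a log2 fold change of 0.21 (SE 0.054, limma adjusted p = 0.00271), a change of 15.6% in the mean. With libraries rescaled to equal totals the JQ1 difference was 0.022 (adjusted p = 0.758). With I-BET 762 the log2 fold change was 0.054 (SE 0.058, adjusted p = 0.437), with a 95% interval from -0.069 to 0.18.

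MAN2A1 (chromosome 5, 109689927 to 109869625, plus strand), the Golgi mannosidase that prepares the acceptor of MGAT2, rose with both inhibitors. Its normalized counts were 753, 785 and 803 in VEH, 1159, 1274, 1199.5 and 1138 with JQ1 and 1069, 1072 and 1216 with I-BET 762. Every treated library lay above every VEH library. The log2 fold change was 0.61 with JQ1 (SE 0.064, limma adjusted p = 3.3e-07) and 0.52 with I-BET 762 (SE 0.068, adjusted p = 7.68e-06), so the means rose by 52.8% and 43.4%. The JQ1 value lay just past the 1.5-fold limit and the I-BET 762 value just short of it. The JQ1 value fell short of that limit too with equal totals (0.43), with equal upper quartiles (0.55) and without JQ1 18 (0.58), while the adjusted p-value stayed under 0.05 in each. MAN2A2, the other Golgi enzyme of this kind, had log2 fold changes of 0.46 (SE 0.095, adjusted p = 0.000449) with JQ1 and 0.31 (SE 0.10, adjusted p = 0.0158) with I-BET 762. Per kilobase of exon, MAN2A2 made up 50.8% ± 2.82 of the sum of both genes in VEH (SD, n = 3), 48.2% ± 4.55 with JQ1 (n = 4) and 47.2% ± 0.982 with I-BET 762 (n = 3). The sum itself stood at 145% of its VEH level with JQ1 and 133% with I-BET 762.

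MGAT2 (chromosome 14, 49620799 to 49623481, plus strand) had 4746, 5189 and 5065 normalized counts in VEH, 5371, 5249.7, 5245 and 4661 with JQ1 and 4708, 4669.9 and 4523 with I-BET 762. The JQ1 libraries overlapped the VEH libraries on both sides, and the I-BET 762 libraries lay below them. Neither log2 fold change passed the test, at 0.036 (SE 0.054, limma adjusted p = 0.555) with JQ1 and -0.11 (SE 0.057, adjusted p = 0.111) with I-BET 762. The 95% intervals ran from -0.077 to 0.15 and from -0.23 to 0.013. The I-BET 762 difference passed the test with equal totals (-0.21, adjusted p = 0.00302) and with equal upper quartiles (-0.15, adjusted p = 0.0255), with the 2 groups fitted alone (-0.11, adjusted p = 0.0255) and without JQ1 20 (-0.11, adjusted p = 0.049), and the JQ1 value turned negative with both rescalings, passing the test with equal totals (-0.15, adjusted p = 0.0122).

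Among the genes for further antennae, MGAT4A (chromosome 2, 98619106 to 98731132, minus strand) went from a few reads per library to well over 100. Its normalized counts were 8.72, 7.40 and 7.28 in VEH, 202, 200.2, 176 and 168 with JQ1 and 134, 157 and 147 with I-BET 762. The VEH values rest on 8 or 9 reads per library, and the treated values on 136 to 184. No treated library came near the VEH range, and the JQ1 libraries lay above the I-BET 762 libraries. The log2 fold change was 4.41 (SE 0.15) with JQ1 and 4.06 (SE 0.16) with I-BET 762, with the means 23.9-fold and 18.7-fold higher. These values led to the choice of the gene and carry no test. In bulk RNA, more cells expressing a gene and more RNA per expressing cell cannot be told apart.

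MGAT4B (chromosome 5, 179797597 to 179806952, minus strand), whose enzyme adds the same antenna, fell with both inhibitors. Its normalized counts were 3015, 2947 and 2913 in VEH, 2206, 1765, 2074 and 2067 with JQ1 and 2094, 1984 and 1923 with I-BET 762. Every treated library lay below every VEH library. The log2 fold change was -0.55 with JQ1 (SE 0.065, limma adjusted p = 1.42e-06) and -0.57 with I-BET 762 (SE 0.070, adjusted p = 3.75e-06), so the means fell by 31.4% and fell by 32.4%, just short of the 1.5-fold limit. MGAT4B passed that limit with equal totals (-0.73 with JQ1, -0.66 with I-BET 762), with equal upper quartiles (-0.61 and -0.60), without JQ1 17 (-0.59 with JQ1) and without I-BET 762 21 (-0.60 with I-BET 762). Exons of MGAT4B overlap exons of SQSTM1, an autophagy receptor gene on the opposite strand, which had 7548 ± 162 normalized counts in VEH (SD, n = 3), 14922 ± 627 with JQ1 (n = 4) and 9983 ± 387 with I-BET 762 (n = 3). The libraries were strand-specific per the labels. The strand setting of the counting is not given in the sources used here, so the share of SQSTM1 reads in the MGAT4B values was not tested.

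**Figure D3:**
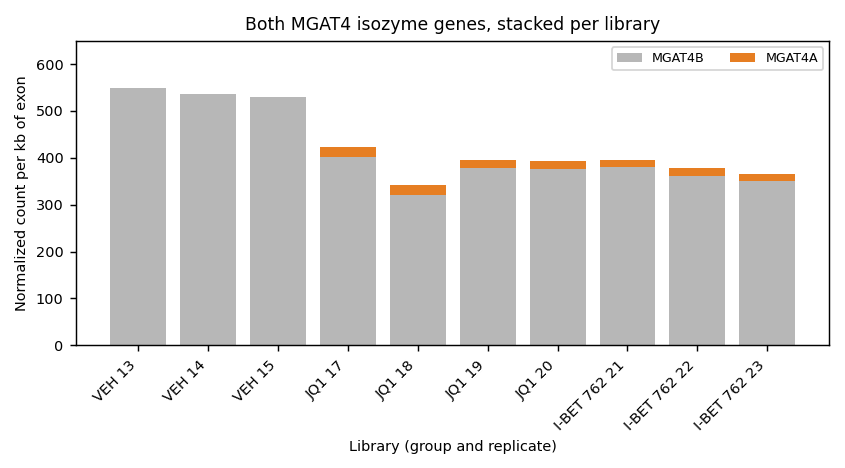
Normalized count per kilobase of merged exon (vertical axis, linear from 0) of MGAT4B and MGAT4A, stacked for each of the 10 libraries. The MGAT4A part is not visible in the VEH libraries and makes up 3.52% to 6.08% of the bar in the treated libraries, whose total height is below that of every VEH library.

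Per kilobase, MGAT4A supplied 0.150% ± 0.0127 of the summed level of both genes in VEH (SD, n = 3), 5.02% ± 0.734 with JQ1 (n = 4) and 4.0% ± 0.43 with I-BET 762 (n = 3). With the longest transcript as length the shares were 0.0944%, 3.22% and 2.56%. MGAT4B was the main transcript of the pair in every library with either length. The summed level per kilobase was 539 ± 9.52 in VEH, 388 ± 33.7 with JQ1 and 379 ± 15.0 with I-BET 762, or 72.0% and 70.3% of VEH. The rise of MGAT4A was smaller in absolute terms than the fall of MGAT4B, and no treated library reached the VEH range of the sum. MGAT4C, another gene of this family, had 0 to 2 reads in any library.

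MGAT5 (chromosome 2, 134119983 to 134454621, plus strand), which starts the antenna that is often extended with lactosamine repeats, had 4486, 4450.5 and 4308 normalized counts in VEH. It had 5230.4, 4869, 5110.2 and 5548 with JQ1 and 4673, 4527 and 4949 with I-BET 762. All treated libraries lay above all VEH libraries, by a narrow margin with I-BET 762. MGAT5 rose with JQ1 by a log2 fold change of 0.23 (SE 0.051, limma adjusted p = 0.000701), a rise of 17.5% in the mean, and this became 0.047 (adjusted p = 0.499) with equal totals. With I-BET 762 the log2 fold change was 0.094 (SE 0.054, adjusted p = 0.145) with a 95% interval from -0.021 to 0.21. Its paralog MGAT5B, known from brain, fell with both inhibitors, from 68.1 ± 11.5 normalized counts in VEH to 30.3 ± 5.88 with JQ1 (log2 fold change -1.15, adjusted p = 0.000124) and 33.7 ± 4.11 with I-BET 762 (log2 fold change -0.99, adjusted p = 0.00118). Per kilobase, MGAT5B was 2.05% ± 0.301 of the sum of both genes in VEH, 0.788% ± 0.148 with JQ1 and 0.960% ± 0.0742 with I-BET 762.

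MGAT3 (chromosome 22, 39457012 to 39492194, plus strand), the gene of the bisecting enzyme, was at a few reads per library with both inhibitors. It had 62.0, 37.9 and 49.1 normalized counts in VEH, 2.2, 3.26, 3.0 and 1.01 with JQ1 and 4.92, 5.01 and 2.95 with I-BET 762. These values rest on 41 to 64 reads per VEH library, 1 to 3 per JQ1 library and 3 to 5 per I-BET 762 library. No treated library approached the VEH range. Over the groups, with library sizes taken into account, 159 VEH reads stood against 9 JQ1 reads, a ratio of 21.0 (95% Clopper-Pearson interval 10.8 to 46.7), and against 13 I-BET 762 reads, a ratio of 11.5 (6.55 to 22.1). These intervals cover counting error only and leave out the spread between libraries. Because MGAT3 entered through its VEH libraries alone, neither these intervals nor the SEs that follow are read as a test. The log2 fold change was -3.94 with JQ1 (SE 0.40) and -3.26 with I-BET 762 (SE 0.42). At so few reads its size depends on the pseudocount and the other settings, which moved it between -4.18 and -2.88 with JQ1 and between -3.39 and -2.54 with I-BET 762.

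FUT8 (chromosome 14, 65410592 to 65744121, plus strand), the core fucosyltransferase gene, rose modestly with both inhibitors. Its normalized counts were 1342, 1516 and 1433 in VEH, 1724, 2038, 1842 and 1787 with JQ1 and 1729, 1715 and 1729.6 with I-BET 762. Every treated library lay above every VEH library, and the I-BET 762 libraries lay close together (SD 8.0). The log2 fold change was 0.37 with JQ1 (SE 0.061, limma adjusted p = 5.55e-05) and 0.27 with I-BET 762 (SE 0.066, adjusted p = 0.00205), which is 29.2% and 20.6% in the means. With equal totals the values were 0.18 (adjusted p = 0.0044) and 0.17 (adjusted p = 0.0108).

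Levels of different genes were compared per kilobase of merged exon. In VEH the order was MGAT2 (1864 ± 85.3 normalized counts per kilobase), MGAT4B (538 ± 9.44), MGAT5 (504 ± 10.7), MGAT1 (267 ± 7.60), FUT8 (205 ± 12.5), MAN2A1 (69.3 ± 2.21), MGAT3 (8.58 ± 2.08) and MGAT4A (0.809 ± 0.0828), each mean ± SD of 3 libraries. The ranges of all 7 neighbouring pairs were separate, also with the length of the longest transcript in place of merged exons, which kept the VEH order. With JQ1, MGAT5 (592 ± 32.2) stood above MGAT4B (369 ± 34.0), and MGAT4A (19.4 ± 1.77) stood above MGAT3 (0.409 ± 0.175), which was last. The JQ1 ranges of MGAT4B and MGAT1 overlapped, as did those of MGAT1 and FUT8. The I-BET 762 libraries had the same order, with MGAT4A at 15.1 ± 1.23 and MGAT3 at 0.742 ± 0.201, and no neighbouring ranges overlapped there. The place of MGAT5 above MGAT4B depended on the length used: with the longest transcript MGAT4B (670.0 ± 61.7) stood above MGAT5 (623 ± 33.9) with JQ1, with overlapping ranges, and with I-BET 762 MGAT4B (661 ± 28.7) stood above MGAT5 (566 ± 25.7) with separate ranges.

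The inhibitors were compared with each other at 5 µM and 48 h, 1 pair of compounds. Of the 7 genes other than MGAT4A, 0 were DEGs between JQ1 and I-BET 762 and 1, MGAT1, passed the adjusted p-value (limma), against 5.31% (1.73% up, 3.59% down) and 27.3% of all tested genes. MGAT1 was also the gene of the 7 whose libraries did not overlap, where 33.8% of all genes did not. It was higher with JQ1 by 0.15 on the log2 scale (SE 0.054, adjusted p = 0.0454), and the call was lost under several settings, such as equal totals (0.065, adjusted p = 0.453), equal upper quartiles (0.12, adjusted p = 0.102) and leaving out any I-BET 762 library (adjusted p = 0.108 to 0.134), JQ1 17 (0.125), JQ1 19 (0.121), VEH 14 (0.062) or VEH 15 (0.0607). MGAT2 and MGAT5 missed the threshold narrowly, with differences of 0.15 (95% interval 0.032 to 0.26, adjusted p = 0.0556) and 0.14 (0.029 to 0.25, adjusted p = 0.0568), and passed it without JQ1 20 (MGAT2 0.19, adjusted p = 0.00608) and without JQ1 18 (MGAT5 0.17, adjusted p = 0.00935), and both did with a filter of a mean of at least 100 normalized counts (adjusted p = 0.0477 for each). MGAT4B differed by 0.016 (-0.12 to 0.15, adjusted p = 0.882), FUT8 by 0.097 (-0.034 to 0.23, adjusted p = 0.263) and MAN2A1 by 0.094 (-0.042 to 0.23, adjusted p = 0.298). For these 3 genes the intervals leave out a 1.5-fold difference. MGAT3 differed by -0.68 with an interval from -1.53 to 0.16 (adjusted p = 0.219), which is too wide at 1 to 5 reads per library to leave one out. The MGAT4A difference was 0.35 (SE 0.15).

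Genes with profiles like these were looked for by the root mean square (RMS) difference of log2 values over the 10 libraries, each profile centred on its own mean. PAG1, a membrane adaptor that binds the kinase CSK, was nearest to MGAT4A at an RMS of 0.236, rising from 32.1 ± 3.59 normalized counts in VEH to 928 ± 5.26 with JQ1 and 780.1 ± 80.1 with I-BET 762. SIPA1L2 (0.354), CRISPLD2 (0.359), TMEM132B (0.363) and TEX14 (0.420) followed. Without VEH 14, 2 of these 5 stayed among the nearest 5, and without VEH 15, 3 did. SEMA6B (0.309), a semaphorin, and PLAC1 (0.315) were nearest to MGAT3. PLAC1 had 58.7 ± 13.2 normalized counts in VEH, 3.38 ± 1.18 with JQ1 and 4.30 ± 1.16 with I-BET 762. Like MGAT3 it passed the filter through the VEH libraries alone, so its nearness rests on few treated reads and is not read as a result. PANK3 (0.0477), a pantothenate kinase, and FAM126B (0.0483) were nearest to MAN2A1.

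Of 7 annotated genes with a start within 250 kb of the start of MGAT4A, 2 were tested, and neither rose. Of all tested genes, only 13.3% rose as DEGs with JQ1 and 8.96% with I-BET 762. The 1 DEG of the 2 was UNC50 with JQ1, downwards, beside 22.8% of all tested genes. UNC50 had a log2 fold change of -0.63 with JQ1 (SE 0.067, limma adjusted p = 3.74e-07) and -0.44 with I-BET 762 (SE 0.071, adjusted p = 6.71e-05), and COA5, a gene for cytochrome oxidase assembly, values of -0.12 (SE 0.059, adjusted p = 0.0727) and -0.17 (SE 0.064, adjusted p = 0.0321). Around MGAT3, 8 of 16 neighbours were tested. Of these, 2 were DEGs with JQ1 and 1 with I-BET 762, beside 36.1% and 26.9% of all tested genes. These were SYNGR1 (-0.59 with JQ1) and CACNA1I (-2.68 and -1.83), named here after their values were seen. CACNA1I, a calcium channel gene, went from 17.9 ± 4.8 normalized counts in VEH to 2.33 ± 1.56 with JQ1 and 4.61 ± 2.82 with I-BET 762. Like MGAT3, it passed the filter through the VEH libraries alone, so its calls against VEH are not read as a result. None of the 10 neighbours of MAN2A1 was tested, since 0 passed the filter.

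The wider N-glycan pathway was described with 11 lists holding 118 genes, of which 101 were tested. With JQ1, 15 were DEGs upwards and 18 downwards, or 32.7% against 36.1% of all genes, and with I-BET 762, 10 and 13, or 22.8% against 26.9%. The median log2 fold change of the 101 genes was 0.081 with JQ1 and 0.043 with I-BET 762, beside 0.0076 and -0.00063 for all genes.

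**Figure D4:**
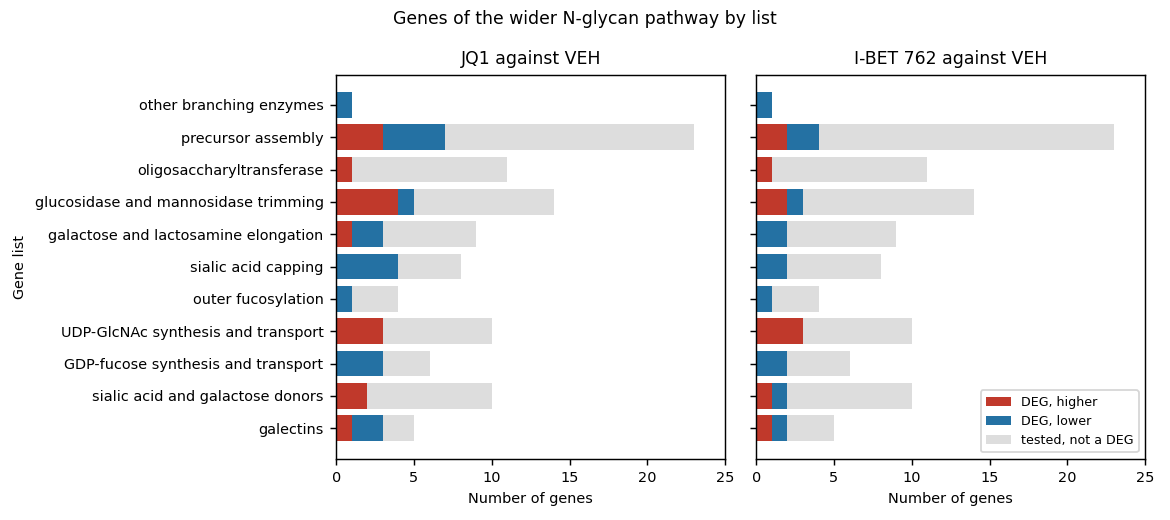
Number of tested genes (horizontal axis) in each of the 11 lists of the wider N-glycan pathway with JQ1 (left) and I-BET 762 (right), split into DEGs higher than VEH, DEGs lower than VEH and genes that were not DEGs. With each inhibitor, sialic acid capping, GDP-fucose supply, outer fucosylation and other branching enzymes hold lower DEGs and no higher ones. The UDP-GlcNAc list, with 3 higher DEGs, and oligosaccharyltransferase, with 1, hold no lower ones with either inhibitor.

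The UDP-GlcNAc list holds 10 genes that make, carry, use or recycle this donor of every MGAT enzyme, with OGT among the users. Of these 10, 3 rose as DEGs with each inhibitor and 0 fell, where 13.3% of all tested genes rose with JQ1 and 8.96% with I-BET 762. GFPT2, which controls entry into the hexosamine pathway, went from 499.8 ± 29.6 normalized counts in VEH to 1494 ± 41.1 with JQ1 (log2 fold change 1.58, SE 0.057, limma adjusted p = 1.38e-12) and 1156 ± 18.5 with I-BET 762 (1.21, SE 0.061, adjusted p = 1.94e-10). Its paralog GFPT1, named here after its values were seen, was no DEG and had 7421 ± 240 normalized counts in VEH. GFPT1 had 7802 ± 386 with JQ1 (log2 fold change 0.071, limma adjusted p = 0.186). With I-BET 762 it had 7810 ± 104 (0.074, adjusted p = 0.216). NAGK, a salvage kinase, had log2 fold changes of 0.74 and 0.80, and OGA, which releases GlcNAc from intracellular proteins, 0.75 and 0.64. The list's median was 0.43 with JQ1 and 0.19 with I-BET 762.

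Of 6 genes for GDP-fucose, the donor of FUT8, 0 rose as DEGs, and 3 fell with JQ1 and 2 with I-BET 762, where 22.8% and 17.9% of all tested genes fell. SLC35C1, the Golgi GDP-fucose transporter, went from 577 ± 10.8 normalized counts in VEH to 271 ± 33.8 with JQ1 (log2 fold change -1.09, limma adjusted p = 4.77e-08) and 254 ± 16.9 with I-BET 762 (-1.18, adjusted p = 8.73e-08). FCSK, the fucose salvage kinase, had log2 fold changes of -0.84 and -0.61. Among outer fucosyltransferases, 1 of 4 tested fell with each inhibitor, FUT1 (-2.09 and -1.74), which builds the H antigen.

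Upstream of the branching enzymes, 23 genes assemble the lipid-linked precursor. With JQ1 3 rose and 4 fell as DEGs, and with I-BET 762 2 rose and 2 fell. Of all tested genes, 13.3% rose and 22.8% fell with JQ1, and 8.96% rose and 17.9% fell with I-BET 762. The same shares stand beside the counts of the next lists. ALG6, a glucosyltransferase, rose by 1.32 and 1.18 on the log2 scale and SRD5A3, a polyprenol reductase, by 1.11 and 0.67. DPAGT1 and ALG14, which act in the opening steps, had log2 fold changes of -0.99 and -0.80 and of -1.23 and -0.67. STT3B, a catalytic subunit, was the DEG among 11 tested oligosaccharyltransferase genes, at 0.82 and 0.65. Of 14 trimming genes, 4 rose and 1 fell with JQ1 and 2 rose and 1 fell with I-BET 762. The mannosidase gene MAN1C1 had log2 fold changes of 1.70 and 1.71, EDEM3, which acts on misfolded glycoproteins, 0.89 and 0.81, and the endomannosidase gene MANEA -0.98 and -0.80.

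Downstream, 8 sialyltransferase genes were tested, of which 0 rose and 4 fell with JQ1 and 2 fell with I-BET 762, again beside 22.8% and 17.9% of all tested genes. ST6GAL1, which caps N-glycan antennae, went from 778 ± 20.0 normalized counts in VEH to 436 ± 20.5 with JQ1 (log2 fold change -0.83, limma adjusted p = 2.19e-07) and 444 ± 56.4 with I-BET 762 (-0.82, adjusted p = 1.11e-06), and ST8SIA6 had log2 fold changes of -2.34 and -2.48. The list's median was -0.58 and -0.41. Over all tested genes, 13.3% rose and 22.8% fell with JQ1, and 8.96% rose and 17.9% fell with I-BET 762. These shares stand beside the next counts against VEH. Of 9 genes for galactose and lactosamine, 1 rose and 2 fell with JQ1 and 0 rose and 2 fell with I-BET 762. The 2 were GCNT2, which branches lactosamine chains (-2.38 and -1.76), and the galactosyltransferase gene B4GALT2 (-0.96 and -0.74). Of 10 genes for the sialic acid and galactose donors, 2 rose and 0 fell with JQ1 and 1 rose and 1 fell with I-BET 762, and SLC35A1, the CMP-sialic acid transporter, had 0.97 and 0.73. The galectin list had 5 tested genes, of which LGALS3BP encodes a galectin-binding protein and is no galectin. Of the 5, 1 rose and 2 fell with JQ1, LGALS3BP (-0.60) among the latter, and 1 rose and 1 fell with I-BET 762. LGALS3, whose product binds lactosamine on branched glycans, had log2 fold changes of 0.98 and 0.76. LGALS9 had -3.70 and -2.32, from 32.5 ± 8.53 normalized counts in VEH to 1.57 ± 0.601 and 5.92 ± 2.57, and its reads may be split with near-identical copies. It passed the filter through the VEH libraries alone, so its calls against VEH are not read as a result. Between JQ1 and I-BET 762, 2 of the 101 genes were DEGs, beside 5.31% of all tested genes. They were GCNT2 (-0.63) and LGALS9 (-1.38), both lower with JQ1, and the LGALS9 value rests on few reads.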

How the data were processed

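RNA of SK-UT-1 cells was measured in 12 labelled libraries, of which 10 had values. The submitters' processing notes and the study's methods name FastQC 0.73, Trimmomatic, HISAT2 2.2.1 on hg38, featureCounts 2.0.3 and DESeq2 normalization, and the authors excluded outlier samples. The values as deposited are log2(normalized count + 1), 1 per symbol and library. After undoing the log2, 99.7% of the non-zero values of each library were whole multiples of 1 step (tolerance 0.01), which gave scaling factors and reads.

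Genes with at least 10 normalized counts in at least 3 libraries were fitted with limma 3.58.1 (R 4.3.3, intensity trend, 3 groups in 1 model, 3 contrasts, two-sided, Benjamini-Hochberg over 14839 genes). Tables used pandas 2.3.3, numpy 2.4.6 and scipy 1.17.1 under Python 3.11.15. On simulated data for JQ1 against VEH, 93 of 100 genes changed by 1 and 99 of 100 changed by 2 on the log2 scale were recovered, with 2 unchanged genes called, among 14909 tested. Changed genes were drawn from those with VEH means above the filter level, and far fewer changed than in the data. Smaller changes and genes at few reads were not simulated, so their recovery is not known.

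The members and lists were chosen with earlier results of these data known. Named are all members, up to 4 genes per pathway list that were DEGs with both inhibitors (largest smaller change), the 5 genes most like MGAT4A and the 2 most like each other DEG, and tested neighbours of MGAT4A. Positions are from Gencode V44 on hg38 and promoters from RefSeq. Alternatives were other pseudocounts (0.5, 5), filters, scalings, fold limits, samples in the fit, no trend, limma-voom on the recovered reads and leaving out each library. Chosen after seeing the data were those for the pathway lists, neighbours and genes alike, the counts without MGAT3 and the MGAT4A share by longest transcript.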

Additional observations from a re-analysis of the deposited data

How the results depend on the processing

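No paired analysis was run, because the replicate numbers 13 to 24 all differ between groups and name no pairs. Whether cultures were matched between groups is not known from the labels. MGAT4B, FUT8 and MAN2A1 kept their direction and an adjusted p-value under 0.05 against VEH under every alternative run. The filter admits MGAT3 through VEH alone, so its calls against VEH are not read as a result. The counts below include it unless stated. DEGs among the 7 genes other than MGAT4A were then 2 with JQ1 and 1 with I-BET 762, beside 36.1% and 26.9% of all tested genes. With MGAT3 left out, or with a mean of at least 100 normalized counts, which removes it, they were 1 and 0. Without a fold limit they were 6 and 4 with MGAT3 and 5 and 3 without it, beside 71.7% and 61.1% of all tested genes. Between the inhibitors 1 passed without a fold limit, beside 27.3%. With a 2-fold limit the 1 DEG with JQ1 was MGAT3. With equal totals or equal upper quartiles, 2 were DEGs with I-BET 762. Leaving out 1 library gave 1 to 3 with JQ1 and 0 to 2 with I-BET 762, where leaving out VEH 13, 14 or 15 removes MGAT3 by the filter's construction (1 and 0). Without JQ1 18, 1 was a DEG with JQ1, without JQ1 17, 3 were, and without I-BET 762 21, 2 were with I-BET 762. Of all 14839 tested genes, I-BET 762 changed 4058 as DEGs at equal totals and 3986 at equal upper quartiles, beside 3991 in the main analysis. The step there from 1 to 2 members is 1 gene, MGAT4B, and is not read as a result. Leaving out 1 library called 4962 to 5394 of all genes (JQ1) and 3615 to 4018 (I-BET 762). For the 2-fold limit no count of all genes is given here.

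Limma-voom on the recovered reads called 5397 genes with JQ1 and 4033 with I-BET 762, beside 5358 and 3991. Equal totals moved the median of all genes by -0.18 with JQ1 and -0.096 with I-BET 762, and the share of DEGs that fell from 63.1% to 77.5% and from 66.7% to 75.5%. Signs turned for MGAT2 with JQ1 (-0.15 with equal totals, -0.028 with equal upper quartiles, -0.00076 to 0.082 when 1 library was left out, the lowest without VEH 13), for MGAT1 (-0.043) and MGAT5 (-0.0020) with I-BET 762 at equal totals, and for MGAT4B between the inhibitors (-0.073 with equal totals, -0.012 with equal upper quartiles, and -0.026 to 0.081 when 1 library was left out, negative without JQ1 17 and without I-BET 762 23). None of these passed the test in the main analysis, and the cause was not tested. Per kilobase, the log2 ratio of MGAT5 to MGAT4B was 0.69 (JQ1) and 0.56 (I-BET 762) by merged exons, but -0.10 (JQ1) and -0.22 (I-BET 762) by the longest transcript.

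In the wider pathway, 33 of 101 tested genes were DEGs with JQ1, 23 with I-BET 762 and 2 between them. Without a fold limit these counts became 71, 64 and 30, beside 71.7%, 61.1% and 27.3% of all tested genes. With a 2-fold limit they were 12, 8 and 1, and the share of all genes at that limit is not given here. Leaving out 1 library gave 32 to 34, 21 to 25 and 1 to 3. Between the inhibitors, 1 was left with a pseudocount of 5, with a mean of at least 100, with the 2 groups alone, and without VEH 13, VEH 14, VEH 15, JQ1 20, I-BET 762 21 or I-BET 762 23. Of the neighbours of MGAT4A, 1 was a DEG with JQ1 and 0 in the other comparisons. Without a fold limit, 2 passed with I-BET 762 and 1 between the inhibitors, and with a 2-fold limit 0 with JQ1. Of the 5 genes most like MGAT4A, 3 stayed with a pseudocount of 5, and 2 to 5 stayed when 1 library was left out, 2 without VEH 14 and 3 without VEH 15. Depth limits MGAT3 in treated libraries and MGAT4A in VEH, at 1 to 5 and at 8 or 9 reads.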
